A study of Rattus norvegicus with 2 samples.

Results

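Satellite glial cells (SGCs) of rat dorsal root ganglia (DRGs) were taken from the single-cell counts by a gate on marker genes, so the members were chosen by their measured levels of these genes. A cell barcode was kept if it held at least 1000 unique molecular identifiers (UMIs, each a counted mRNA molecule) and under 20% of them came from mitochondrial genes. It entered the gate if, per 10000 of its UMIs, Fabp7 and Tyrp1 together reached at least 12, the myelin genes Prx, Mag and Cldn19 together stayed under 5, the endothelial genes Cldn5, Flt1 and Cdh5 under 5, the mural genes Tagln and Acta2 under 10, and the fibroblast gene Lum under 3. The gate held 7014 of the 24179 barcodes of both libraries. Of these, 2951 came from the library labelled DPN (diabetic peripheral neuropathy) and 4063 from the library labelled Control. The levels of the 11 gate genes are therefore descriptions, and no statement below rests on them.

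In the DPN group, male SD (Sprague Dawley) rats, bought at 8 weeks of age, received a single intraperitoneal injection of 65 mg/kg streptozotocin (STZ), a toxin that destroys the insulin-producing beta cells. Control rats received citrate buffer alone. The lumbar DRGs were taken 8 weeks after the injection, and the ganglia of 5 rats were pooled into 1 library per group, made with 10x Genomics chemistry that tags the 3′ ends of transcripts. Each group is thus 1 pool measured once, so that no test between DPN and Control was possible. A level is given in UMIs per 1000000 UMIs of the gated cells (CPM) with its exact Poisson 95% interval, and a ratio, always DPN over Control, with its exact conditional 95% interval. All intervals cover counting error only, and differences between rats, dissection, dissociation and library cannot be told apart from the effect of STZ.

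SGCs are the flat glia that wrap each sensory neuron's cell body. They take up potassium and glutamate around the neuron, are joined to each other by gap junctions, and make cholesterol and fatty acids. Fabp7, which carries fatty acids in the cytosol, is the classical marker of these cells in the ganglion, while Tyrp1 is better known as a melanin enzyme of pigment cells. The vessels of the ganglion are leaky, so that these glia are exposed to the glucose and lipids of the blood.

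The gated cells carried the genes that mark SGCs beside the gate. Fbln2, a matrix protein of the fibulin family, had 1452 CPM (1439 to 1465) in DPN SGCs and 1594 CPM (1584 to 1605) in Control SGCs. Relative to all other kept barcodes of the same library, this was 8.33-fold in DPN and 8.67-fold in Control. Cdh15, a cell adhesion molecule, had 287 CPM in DPN SGCs and 328 CPM in Control SGCs, which was 7.03-fold the level of the other barcodes in DPN and 7.74-fold in Control. The 12 listed SGC markers, among them the potassium channel gene Kcnj10, the glutamate transporter gene Slc1a3 and the gap junction gene Gja1, all had at least 20 UMIs in gated cells. That minimum is low and does not show a level above other barcodes. Ednrb, also on the list, was 2.08-fold the level of the other barcodes in DPN and 1.74-fold in Control. Other genes high over the remaining barcodes in DPN and Control were Agt (angiotensinogen, 11.7-fold and 11.2-fold), Igfbp2 (9.85-fold and 11.99-fold), Spp1 (osteopontin, 7.62-fold and 8.78-fold), Ncan (neurocan, 8.96-fold and 10.9-fold), the secretory gene Scgb1a1 (8.37-fold and 9.77-fold) and the casein gene Csn1s1 (12.6-fold and 24.5-fold). Apoe, the lipid-carrying apolipoprotein, alone made up 7.02% of the UMIs of DPN SGCs and 8.38% of those of Control SGCs. In the Schwann gate its share was 2.97% in DPN and 3.12% in Control, and in the endothelial gate 0.794% in DPN and 0.961% in Control. These comparison gates were cut from the same 2 libraries by their own marker genes.

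**Figure D1:**
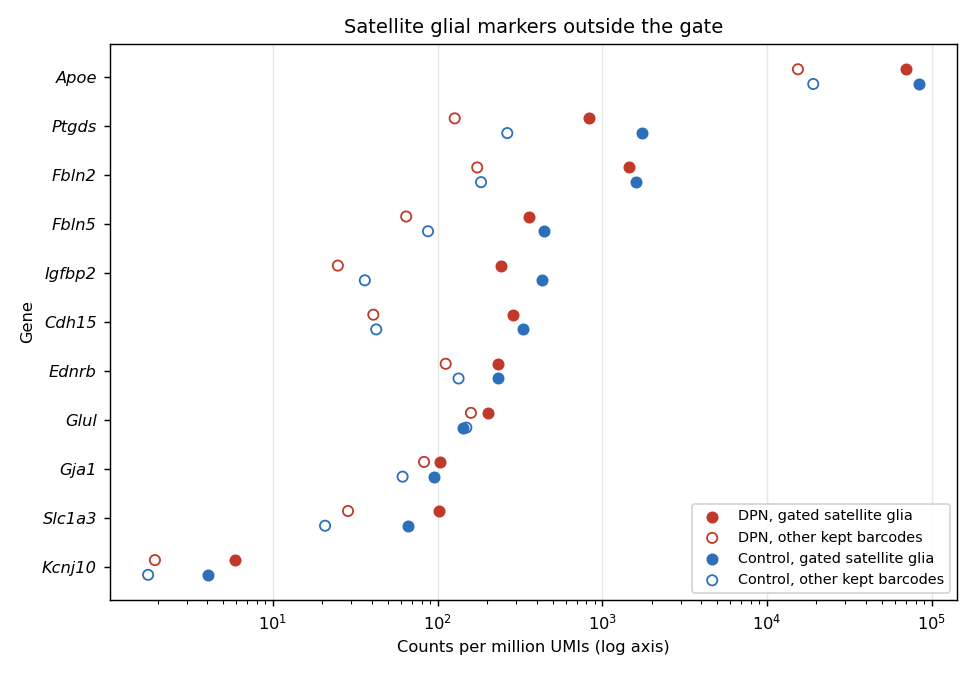
Levels of 11 satellite glial marker genes in CPM (log axis) in gated cells (filled circles) and in all other kept barcodes (open circles) of the DPN (red) and Control (blue) libraries. Each circle is the pooled level of 1 library. Fbln2 lay at 1452 CPM in gated DPN cells and 1594 CPM in gated Control cells, and in the other barcodes at 174 CPM in DPN and 184 CPM in Control.

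The other pigment genes differed among themselves. Tyr and Mlana, which define melanocytes, had no UMI in gated cells of either library, which allows up to 0.0909 CPM in DPN and 0.0527 CPM in Control. Mitf, their master transcription factor, had 10.4 CPM in DPN SGCs and 9.74 CPM in Control SGCs, Pmel, a melanosome protein, had 23.6 CPM in DPN SGCs and 28.5 CPM in Control SGCs, and Kit had 27.5 CPM in DPN SGCs and 23.5 CPM in Control SGCs. Pmel was 3.56-fold the level of the other barcodes in DPN and 3.22-fold in Control. Among the relatives of Fabp7, Fabp5 was abundant with 3235 CPM in DPN SGCs and 3364 CPM in Control SGCs, a ratio of 0.962 (0.955 to 0.969), and the retinoic acid binding gene Crabp2 had 111 CPM in DPN SGCs and 114 CPM in Control SGCs. Pmp2, the fatty acid binding protein of peripheral myelin, had 78.2 CPM in DPN SGCs and 74.0 CPM in Control SGCs. None of the 7 measured relatives passed a ratio of 1.5 in either direction.

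Cells near the limit of the gate had lower levels of SGC markers and more Scn7a. In DPN, Cdh15 reached 179 CPM in the 533 barcodes with 9 to 12 Fabp7 and Tyrp1 UMIs per 10000, 213 CPM in the 430 barcodes at 12 to 15, and 298 CPM in the 2521 barcodes above. In Control, it reached 152 CPM in 425 barcodes, 229 CPM in 453 and 339 CPM in 3610. Scn7a, which marks non-myelinating Schwann cells, was lower in the bins with more Fabp7 and Tyrp1 in both libraries, with 317, 248 and 185 CPM in DPN and 116, 77.2 and 51.9 CPM in Control. The values changed by degrees across the limit, so that the gate is a cut through a range.

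Of the kept barcodes, 26.8% (25.97 to 27.63, Clopper-Pearson) passed the gate in DPN and 41.5% (40.5 to 42.5) in Control. A share is relative to all kept cells, so that fewer SGCs and more cells of other types cannot be told apart, and each was measured once. Gated DPN cells were also shallower, with a median of 11127 UMIs and 2759 genes, against 13749 UMIs and 2900 genes in Control. The median mitochondrial share was 15.5% in DPN and 14.1% in Control. Myelin, endothelial, mural and fibroblast limits removed few cells, since 98.0% of the DPN and 98.3% of the Control barcodes that reached the Fabp7 and Tyrp1 level stayed in the gate. Markers of macrophages reached 5 per 10000 UMIs in 0.305% of gated DPN and 0.295% of gated Control cells, and those of red blood cells in 0.102% of DPN and 0.172% of Control cells. Neuron markers stood apart, since 45.9% of DPN and 17.3% of Control gated cells reached 5 per 10000. Across the libraries, 38 barcode sequences occurred in both, 4 of them in the gate in both, and leaving these sequences out changed no count below by more than 1.5 times. Likely doublets were not called.

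Between DPN and Control, 6987 genes had enough counts to compare in gated cells. A gene is called here if its ratio is at least 1.5 or at most 0.667 and its interval leaves out 1. By this rule 1314 genes (18.8%) were higher and 153 (2.19%) were lower in DPN SGCs. The median log2 ratio was 0.08. These shares are the background for the calls of lists below, whose members count from 20 UMIs, a lower minimum. With no minimum of counts, 3844 of 17487 genes were higher and 321 lower. In the same 2 libraries the Schwann gate had 15.3% higher and 1.75% lower of 5256 genes, and the endothelial gate 16.8% higher and 4.04% lower of 7360. The 3 comparisons share their libraries and are therefore not independent.

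The excess of higher calls went with the length of genes on the chromosome. Of the compared genes, 6548 (93.7%) were found in RefSeq. In the quartile with the shortest span, the median log2 ratio was -0.17, and 5.80% of genes were higher and 4.28% lower in DPN SGCs. In the quartile with the longest span, the median was 0.46, and 38.1% were higher and 0.672% lower. The medians of the shortest and the longest quartile were -0.19 and 0.41 in the Schwann gate and -0.21 and 0.42 in the endothelial gate. Dividing each ratio by the median of its span quartile was an alternative chosen after these data had been seen. It left 752 of the 6548 genes higher and 311 lower, the background for centred counts of lists. Of these calls 70.7% were higher, against 89.6% without centring. Where counts with and without span centring are given below, they are over the same members. Those are the members that were compared and found in RefSeq, since the others could not be centred. Centring also moved single calls in some lists for which no such counts are given. Lists of transcripts that report on the RNA itself differed among themselves. Of the list of long and nuclear-retained transcripts, Malat1, Neat1, Meg3, Kcnq1ot1 and Miat had no row in the counts. The 10 measured members are protein-coding genes. All 10 had ratios above 1 (median log2 ratio 0.64, with span centring 0.21). Of the 10, 6 were called higher without and 1 with span centring. Akap9, for example, had a ratio of 1.90. The ribosomal protein genes had a median of -0.23 (with span centring -0.07) with 2 of 27 ratios above 1. Of the mitochondrially encoded genes, which could not be centred by span, 13 of 13 had ratios above 1 (median 0.19). The cause of the trend with gene span was not tested. Members of lists that are named below beside the extremes of their list were chosen after their values were seen.

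Neuron genes were also higher in DPN SGCs. Of 13 neuron markers 12 had ratios above 1 and 9 were called higher, with a median log2 ratio of 0.80. Over all compared genes, 18.8% were called higher and 2.19% lower. Stmn2, a microtubule regulator of neurons, had 80.3 CPM in DPN SGCs and 43.7 CPM in Control SGCs, and the peptide gene Calca had 65.03 CPM in DPN SGCs and 36.9 CPM in Control SGCs. The summed level of the list was 504 CPM in DPN and 321 CPM in Control SGCs, and none of its genes was at 0. The same list had a median of 1.34 in the Schwann gate and 0.68 in the endothelial gate. Without the cells that held markers of neurons, macrophages or red blood cells, 1379 genes were higher and 146 lower in DPN SGCs, while the neuron markers had 2 higher calls and a median of 0.40. Of 8 mural markers outside the gate 6 were also called higher and 1 lower, at a summed level of 35.4 CPM in DPN and 25.5 CPM in Control. Pdgfrb, the only one of them with at least 200 UMIs, had a ratio of 1.15 and was not called. The part of RNA from neurons or vessels in the other results was not tested.

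The highest ratio belonged to Sst, the neuropeptide somatostatin of a class of sensory neurons, with 445 UMIs in 368 DPN cells and 41 UMIs in 34 Control cells, a ratio of 18.7 (13.6 to 26.5). In cells thinned to 2000 UMIs, 3.01% of DPN and 0.198% of Control SGCs held an Sst UMI, and in the endothelial gate, whose cells should lack it, 3.88% of DPN cells and 0 of 709 Control cells did, which allows a share of up to 0.423%. The ratio was 30.1 in the Schwann gate and 16.5 in the endothelial gate. Median depths before thinning were 11127 UMIs in DPN and 13749 UMIs in Control in the SGC gate, and 7723 in DPN and 9718 in Control in the endothelial gate. The share of DPN SGCs with an Sst UMI thus lay below that of DPN endothelial cells, and no expression by SGCs is read from it.

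Next to Sst, the genes with the highest ratios differed in function. Txnip, which binds thioredoxin and restrains glucose uptake, had 156 CPM (152 to 160.3) in DPN SGCs and 32.1 CPM (30.7 to 33.7) in Control SGCs, a ratio of 4.85 (4.60 to 5.12). Its ratio was 3.24 in the Schwann gate and 1.24 in the endothelial gate. Col4a2, a basement membrane collagen chain, had 20.7 CPM in DPN SGCs and 4.28 CPM in Control SGCs, a ratio of 4.84 (4.17 to 5.62). Tnfaip3, a brake on NF-kB signalling, had 13.7 CPM in DPN SGCs and 2.97 CPM in Control SGCs, a ratio of 4.61 (3.85 to 5.53). Socs3, the feedback inhibitor of cytokine receptors, had 73.3 CPM in DPN SGCs and 18.4 CPM in Control SGCs, a ratio of 3.99 (3.71 to 4.29). Adamts1, a secreted protease of the matrix, had 182 CPM in DPN SGCs and 44.9 CPM in Control SGCs, a ratio of 4.06 (3.87 to 4.25). Mfge8, a secreted protein that bridges dying cells to phagocytes, had 14.1 CPM in DPN SGCs and 3.42 CPM in Control SGCs, a ratio of 4.12 (3.48 to 4.90), with 3.34 in the Schwann gate and 1.01 in the endothelial gate. Ratios of Ppp1r13b, Serinc1, Enpp5, Lonrf1, Rap1b, Zbtb1 and Stam2 lay between 3.96 and 5.45.

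The lowest ratios were also spread over functions. Csn1s1, a casein, had 113 UMIs in DPN SGCs and 1146 UMIs in Control SGCs, a ratio of 0.170 (0.139 to 0.207), with 0.539 in the Schwann gate. Igf1, insulin-like growth factor 1, had 23.0 CPM (21.4 to 24.7) in DPN SGCs and 96.1 CPM (93.6 to 98.7) in Control SGCs, a ratio of 0.240 (0.222 to 0.259). Ptgds, the enzyme that makes prostaglandin D2 and a secreted lipid carrier, had 828 CPM (818 to 838) in DPN SGCs and 1733 CPM (1722 to 1744) in Control SGCs, a ratio of 0.478 (0.471 to 0.484). Its ratio was 0.600 in the Schwann gate and 0.424 in the endothelial gate. Angptl4, which inhibits lipoprotein lipase and is a target of the fatty acid sensing PPARs, had 275 CPM in DPN SGCs and 542 CPM in Control SGCs, a ratio of 0.508 (0.496 to 0.520), with 0.497 in the Schwann gate and 0.823 in the endothelial gate. The immune genes Psmb9, Apol9a, Il15ra, Tlr2 and Sp110 had ratios of 0.441 to 0.473. The rest of the 15 lowest were MGC108823, the lipase gene Pnlip, Mob3a, March3, Igfbp3 and Trib3, with ratios of 0.371 to 0.512.

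**Figure D2:**
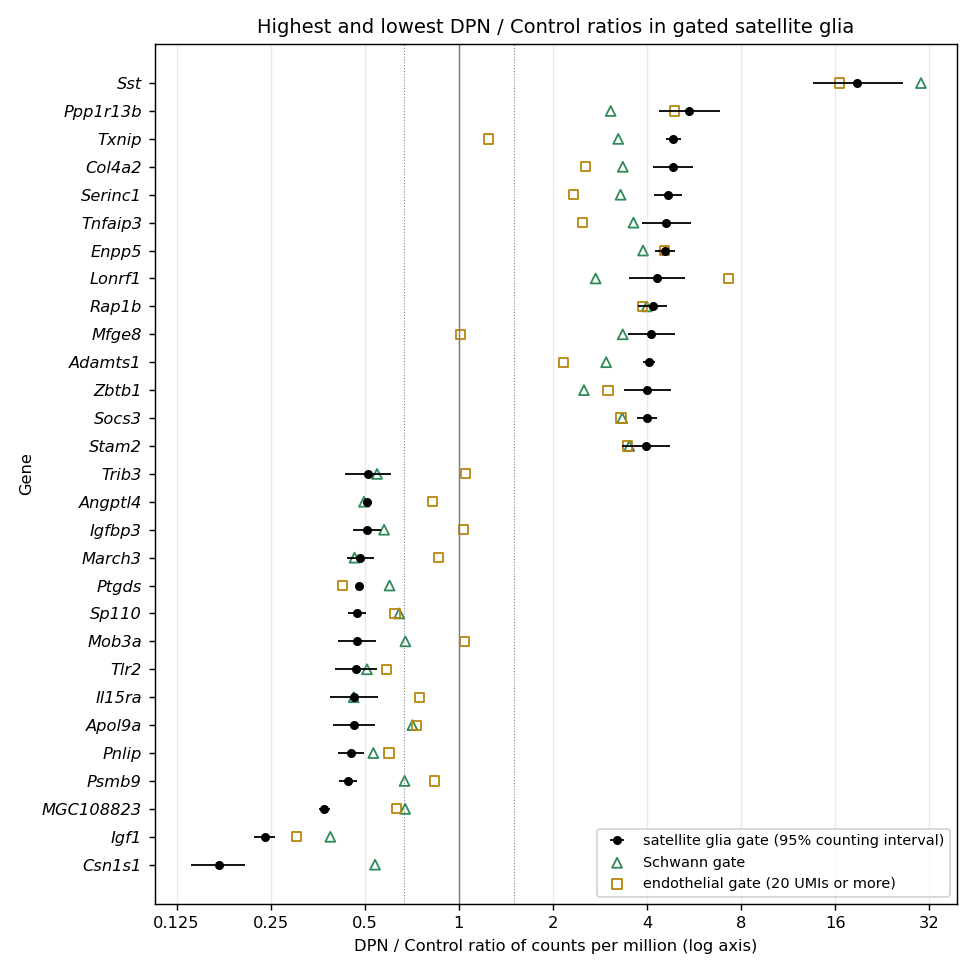
DPN over Control ratios of CPM (log axis) of genes among the 15 with the highest and the 15 with the lowest ratio in gated satellite glia (black, with 95% counting intervals), beside the same genes in the Schwann gate (green triangles) and in the endothelial gate (brown squares, 20 UMIs or more). Sst stands at 18.7, Txnip at 4.85 and Igf1 at 0.240. Dotted lines mark ratios of 0.667 and 1.5, and genes were picked for their ratios in satellite glia, so those ratios are a description.

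Of the listed chaperones of the endoplasmic reticulum (ER), 6 of 15 were called higher in DPN SGCs. They fold secreted and membrane proteins and are induced when unfolded proteins pile up there. Ratios were above 1 for 14 of the 15 and none was called lower. Over all compared genes, 18.8% were called higher and 2.19% lower. The median log2 ratio was 0.51 both with and without span centring, beside 0.08 over all compared genes. With span centring 7 of the 15 were called higher. Hspa5 (BiP), the main ER chaperone, had 2038 CPM (2022 to 2053) in DPN SGCs and 671 CPM (665 to 678) in Control SGCs, a ratio of 3.04 (2.998 to 3.07). Per 10000 UMIs, 96.9% of DPN cells lay above the Control median of 6.21 Hspa5 UMIs. Hyou1, an exchange factor of BiP, had 42.1 CPM in DPN SGCs and 14.1 CPM in Control SGCs, a ratio of 2.98 (2.73 to 3.26). Creld2, a small ER protein, had 27.0 CPM in DPN SGCs and 10.0 CPM in Control SGCs, a ratio of 2.69 (2.42 to 2.99). Pdia4 and Pdia3, which form disulfide bonds, had ratios of 2.34 (2.18 to 2.52) and 1.77 (1.73 to 1.82). Hsp90b1 (GRP94), the ER form of Hsp90, had 675 CPM in DPN SGCs and 317 CPM in Control SGCs, a ratio of 2.13 (2.09 to 2.17).

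The other 9 ER chaperones did not pass the threshold. Their ratios were 1.495 for Dnajc3, 1.42 for Dnajb9, 1.39 for Canx, 1.26 for Pdia6, 1.26 for Manf, 1.12 for Dnajb11, 1.09 for P4hb, 1.05 for Calr and 0.894 for Sdf2l1. Calr, which encodes the abundant calcium-binding chaperone calreticulin, had 882 CPM in DPN SGCs and 838 CPM in Control SGCs. In the Schwann gate the 6 called genes had ratios of 2.43 (Hspa5), 2.58 (Hyou1), 1.84 (Creld2), 2.51 (Pdia4), 2.35 (Hsp90b1) and 1.78 (Pdia3). In the endothelial gate they had ratios of 1.75, 1.39, 1.15, 1.36, 1.62 and 1.39 in the same order.

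Promoters of several chaperone genes hold the ER stress element, the sequence CCAAT, 9 bases and CCACG that the factors ATF6 and NF-Y bind in mammals. It was searched on both strands in windows from 250 bases before to 50 bases after each RefSeq start site (build GRCr8). Of 33469 windows 22 (0.0657%) held it, and of the 12 ER chaperones with a window 6 did (Calr, Canx, Creld2, Dnajc3, Hsp90b1 and Hspa5). Of these 6, 3 were called higher, and the 6 had a median log2 ratio of 0.84, against 0.34 for the 6 without it. A match is a description of the letters and not a site in use. The windows of 3 called genes and of Calr, which holds the element but was not called, are shown with the fixed bases of the element in capitals (CGTGG, 9 bases and ATTGG where it lies on the other strand). They lie at chr3:38452766-38453065 (plus strand) for Hspa5, chr7:23012244-23012543 (minus strand) for Hsp90b1, chr7:121789134-121789433 (plus strand) for Creld2 and chr19:40213117-40213416 (plus strand) for Calr.
Hspa5: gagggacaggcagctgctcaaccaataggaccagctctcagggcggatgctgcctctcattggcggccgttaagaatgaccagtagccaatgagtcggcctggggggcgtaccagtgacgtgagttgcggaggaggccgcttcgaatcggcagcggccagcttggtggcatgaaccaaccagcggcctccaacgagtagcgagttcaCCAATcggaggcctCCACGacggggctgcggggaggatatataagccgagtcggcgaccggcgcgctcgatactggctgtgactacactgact
Hsp90b1: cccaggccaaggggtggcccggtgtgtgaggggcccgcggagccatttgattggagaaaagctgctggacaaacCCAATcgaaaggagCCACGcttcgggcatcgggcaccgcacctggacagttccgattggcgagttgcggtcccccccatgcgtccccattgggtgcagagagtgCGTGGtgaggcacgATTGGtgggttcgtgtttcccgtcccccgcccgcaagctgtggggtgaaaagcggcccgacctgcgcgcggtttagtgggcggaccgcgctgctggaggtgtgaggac
Creld2: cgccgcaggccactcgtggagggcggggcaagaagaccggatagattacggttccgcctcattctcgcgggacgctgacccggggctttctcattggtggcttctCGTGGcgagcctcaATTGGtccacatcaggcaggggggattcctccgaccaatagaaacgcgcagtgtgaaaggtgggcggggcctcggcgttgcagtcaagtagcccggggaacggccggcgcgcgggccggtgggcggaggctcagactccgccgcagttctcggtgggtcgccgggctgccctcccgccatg
Calr: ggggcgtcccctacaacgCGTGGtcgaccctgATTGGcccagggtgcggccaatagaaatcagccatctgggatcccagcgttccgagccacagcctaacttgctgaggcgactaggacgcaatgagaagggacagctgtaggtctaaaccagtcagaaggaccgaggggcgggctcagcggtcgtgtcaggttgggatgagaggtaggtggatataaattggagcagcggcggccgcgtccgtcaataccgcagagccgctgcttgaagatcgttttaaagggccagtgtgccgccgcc

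The sensors and factors of the unfolded protein response did not move as one. Of 14 genes 5 were called higher and 1 lower, beside 18.8% and 2.19% of all compared genes, with a median log2 ratio of 0.18. The sensor genes Atf6 and Eif2ak3 (PERK) had ratios of 1.80 (1.74 to 1.88) and 1.99 (1.71 to 2.31), and the sensor gene Ern1 (IRE1) had a ratio of 1.37. Xbp1, whose mRNA IRE1 splices, had 6.58 CPM in DPN SGCs and 3.07 CPM in Control SGCs, a ratio of 2.14 (1.75 to 2.63). The degradation genes Sel1l and Edem1 had ratios of 1.90 and 1.65. Of the genes downstream of PERK most were not called, with ratios of 0.807 for Atf4, 0.967 for Ddit3 (CHOP), 0.849 for Chac1 and 0.989 for Asns, and Trib3 fell to 5.42 CPM in DPN against 10.6 CPM in Control, a ratio of 0.512 (0.431 to 0.606). Herpud1, Syvn1 and Selenos had ratios of 1.01, 1.27 and 0.803. Over the 10 members that could be centred by span, 3 were higher and 1 lower without centring and 1 higher and 1 lower with it.

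Most heat shock chaperones outside the ER were not called. Of 15 measured genes 7 had ratios above 1 (median log2 ratio -0.20). None was called higher and 2 were called lower, beside 18.8% and 2.19% of all compared genes. Hspa1b, the stress-induced Hsp70, had 999.9 CPM in DPN SGCs and 1751 CPM in Control SGCs, a ratio of 0.571 (0.564 to 0.578). Its near copy Hspa1a has no row in the counts, so reads of both could have been counted under Hspa1b or lost. Cryab, a small heat shock protein, had 637 CPM in DPN SGCs and 1009 CPM in Control SGCs, a ratio of 0.632 (0.622 to 0.642). Hsp90ab1, Dnaja1 and Hspa8, the most abundant of the rest, had ratios of 1.02, 1.004 and 0.871. The same list had a median of -0.47 in the Schwann gate and -0.37 in the endothelial gate.

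**Figure D3:**
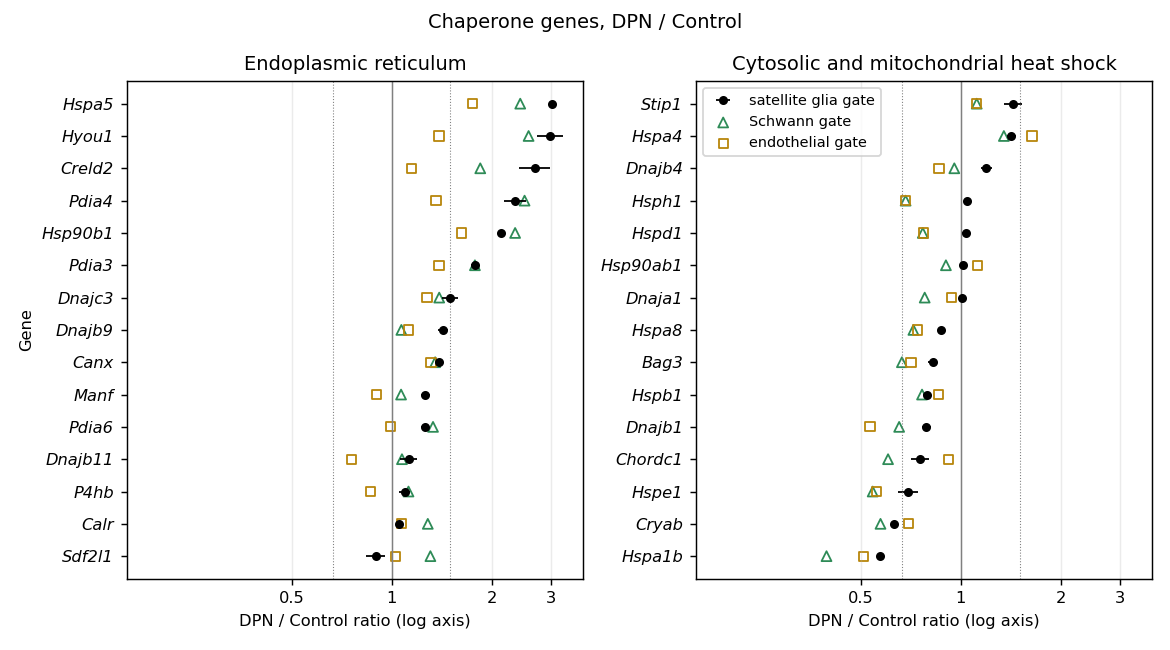
DPN over Control ratios (log axis) of ER chaperones (left) and of heat shock chaperones outside the ER (right) in gated satellite glia (black, with 95% counting intervals), the Schwann gate (green triangles) and the endothelial gate (brown squares). Hspa5, Hyou1 and Creld2 stand at 3.04, 2.98 and 2.69 on the left, and Hspa1b at 0.571 on the right. Dotted lines mark ratios of 0.667 and 1.5.

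Immediate early genes fire within minutes of a stimulus and also during tissue dissociation. Of 19, 11 were called higher in DPN SGCs and none lower, beside 18.8% and 2.19% of all compared genes. The median log2 ratio of the list was 0.77. Over the 18 that could be centred by span, 10 were higher without and 11 with centring. Fos had 4529 CPM in DPN SGCs and 2234 CPM in Control SGCs, a ratio of 2.03 (2.01 to 2.04). Jun had 4095 CPM in DPN SGCs and 2269 CPM in Control SGCs, a ratio of 1.80 (1.79 to 1.82), and Egr1 had 2102 CPM in DPN SGCs and 1049.6 CPM in Control SGCs, a ratio of 2.003 (1.98 to 2.03). Ratios were 0.973 for Atf3, an injury marker, and 0.955 for Myc. Klf4, Klf6 and Zfp36 had ratios of 1.14, 1.76 and 1.71, of which the last pair passed the threshold. In the Schwann gate 7 of 19 were called higher and in the endothelial gate 6 of 19. The part of dissociation in these levels was not tested.

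Of 12 measured genes of insulin-like growth factor (IGF) and insulin signalling 4 were called higher and 3 lower, beside 18.8% and 2.19% of all compared genes. Over the 8 that could be centred by span, none was higher and 3 were lower without centring, and none higher and 4 lower with it. The ligand Igf1 was lower, at 23.0 CPM in DPN against 96.1 CPM in Control, and 18.2% of DPN and 59.1% of Control SGCs held a UMI of it. Its ratios were 0.388 in the Schwann gate and 0.302 in the endothelial gate. The binding proteins, which carry IGFs and limit their access to the receptor, were called lower in the case of Igfbp2 and Igfbp3. Igfbp2 had 245 CPM (239 to 249.9) in DPN SGCs and 434 CPM (429 to 439) in Control SGCs, a ratio of 0.563 (0.549 to 0.578), against 1.03 in the Schwann gate and 0.764 in the endothelial gate. Igfbp3 had 14.7 CPM in DPN SGCs and 28.9 CPM in Control SGCs, a ratio of 0.507 (0.457 to 0.562). Igfbp4, Igfbp5, Igfbp6 and Igfbp7 had ratios of 0.744, 0.755, 1.03 and 0.806. Receptors were called higher at low levels, with 2.06 CPM in DPN against 0.948 CPM in Control for Igf1r (ratio 2.17), 8.15 CPM in DPN against 4.85 CPM in Control for Igf2r (ratio 1.68) and 2.76 CPM in DPN against 1.51 CPM in Control for the insulin receptor Insr (ratio 1.83). The adaptor genes Irs1 and Irs2 had ratios of 2.03 and 1.37. The receptor genes were under the minimums for compared genes and could not be centred by span. Igf1r kept its call under 12 of 13 alternatives, Igf2r under 11 of 14 and Insr under 12 of 14.

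Most genes of cholesterol synthesis, a main activity of SGCs, were not called. Of 23 genes 17 had ratios above 1, and 3 were called higher and 1 lower, beside 18.8% and 2.19% of all compared genes. The median log2 ratio was 0.10, beside 0.08 over all compared genes. Hmgcs1, which acts early in the pathway, had 1856 CPM in DPN SGCs and 1159 CPM in Control SGCs, a ratio of 1.60 (1.58 to 1.62). Idi1, Cyp51, Sqle and Fdps, later steps, had ratios of 1.04, 1.40, 1.07 and 0.789. Ebp, the sterol isomerase, had 61.5 CPM in DPN SGCs and 100.4 CPM in Control SGCs, a ratio of 0.613 (0.582 to 0.645). In transport, Apoe had 70178 CPM (70088 to 70269) in DPN SGCs and 83771 CPM (83696 to 83846) in Control SGCs, a ratio of 0.838 (0.836 to 0.839). Npc1, which exports cholesterol from lysosomes, had 60.3 CPM in DPN SGCs and 33.9 CPM in Control SGCs (ratio 1.78), and Soat1, which esterifies it, had 9.67 CPM in DPN SGCs and 3.90 CPM in Control SGCs (ratio 2.48). Npc2 and Abca1 had ratios of 0.898 and 1.43. Of 13 transport genes 4 were called higher, beside 18.8% of all compared genes, and none lower. Over the 10 that could be centred by span, 2 were higher without and 1 with centring.

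Fatty acid genes were mixed. Of 24 genes of synthesis, elongation and desaturation 5 were called higher and 1 lower (median log2 ratio 0.02), or 3 and 1 without and 2 and 2 with span centring over the 21 that could be centred. A share of 5 in 24 is close to the 18.8% of all compared genes. Scd2, the most abundant desaturase, had 2962 CPM in DPN SGCs and 2804 CPM in Control SGCs, a ratio of 1.06 (1.05 to 1.06). Elovl5, an elongase, had 23.0 CPM in DPN SGCs and 10.7 CPM in Control SGCs (ratio 2.16), and Tecr, which completes each elongation cycle, had 401 CPM in DPN SGCs and 668 CPM in Control SGCs, a ratio of 0.600 (0.588 to 0.612). Dbi, the acyl-CoA binding protein and one of the most abundant transcripts of these cells, had 11286 CPM in DPN SGCs and 16276 CPM in Control SGCs, a ratio of 0.693 (0.691 to 0.696), short of the threshold. Its ratios were 0.675 in the Schwann gate and 0.709 in the endothelial gate. Of 21 genes of the fasting response driven by PPAR alpha, 5 were called higher and 1 lower, also close to the share over all genes. Over the 18 that could be centred by span, 3 were higher and 1 lower without centring, and 1 higher and 2 lower with it. Pdk4, which shuts pyruvate out of the mitochondrion, had 73.4 CPM in DPN SGCs and 26.7 CPM in Control SGCs, a ratio of 2.74 (2.57 to 2.93), while Angptl4, a target of the same receptors, was lower at 275 CPM in DPN against 542 CPM in Control. Cpt1a, which brings fatty acids into mitochondria, had a ratio of 1.13, and Acot1 had a ratio of 0.762.

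In glucose metabolism 9 of 24 measured genes were called higher, beside 18.8% of all compared genes, and none lower, with a median log2 ratio of -0.11. Txnip and Arrdc4, a pair of arrestin genes that glucose induces through the factors MondoA and ChREBP in mammalian cells, had ratios of 4.85 and 2.08 (1.69 to 2.56). Slc16a1, the lactate and pyruvate carrier MCT1, had 33.7 CPM in DPN SGCs and 14.3 CPM in Control SGCs, a ratio of 2.36 (2.15 to 2.59). Hk1, the hexokinase that traps glucose, had 33.9 CPM in DPN SGCs and 12.5 CPM in Control SGCs, a ratio of 2.71 (2.47 to 2.99). Pkm, Pfkp, Pfkfb3 and Gfpt1, the last the entry to the hexosamine pathway, had ratios of 2.33, 3.45, 1.62 and 2.01. Other glycolytic genes were not called, with ratios of 0.835 for Aldoa, 0.798 for Gapdh, 0.744 for Pgk1 and 0.835 for Ldha. Akr1b1 and Sord, the enzymes of the polyol pathway that turns glucose into sorbitol and fructose, had ratios of 0.901 and 0.794, and the glucose transporter gene Slc2a1 had a ratio of 0.889. Over the 19 that could be centred by span, 6 were higher without and 5 with centring.

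Of 11 genes of hypoxia and VEGF 10 had ratios above 1 and 5 were called higher, beside 18.8% of all compared genes (median log2 ratio 0.58). Over the 8 that could be centred by span, 3 were higher without and 2 with centring. The called genes were Vegfb (2.08), the oxygen-regulated factor Hif1a (1.5004), the oxygen sensor Egln1 (1.89), Ankrd37 (1.56) and Ddit4 (1.85), an inhibitor of mTOR. Hif1a, at the threshold, kept its call under 8 of 15 alternatives. Vegfa had 185 CPM in DPN SGCs and 141 CPM in Control SGCs, a ratio of 1.31 (1.27 to 1.36). Ratios of the hypoxia targets Ndrg1, Adm and Bnip3 were 1.19, 1.08 and 0.955, of Epas1 1.09 and of Egln3 1.49.

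Of the genes of the interferon response and MHC class I, 5 of 20 were called lower in DPN SGCs, beside 2.19% of all compared genes, and 2 were called higher. Ratios were above 1 for 5 of the 20. Over the 17 that could be centred by span, 2 were higher and 5 lower without centring, and 3 higher and 5 lower with it. The median log2 ratio was -0.34, against -0.10 in the Schwann gate and 0.03 in the endothelial gate. Isg15, a ubiquitin-like antiviral protein, had 146 CPM in DPN SGCs and 278 CPM in Control SGCs, a ratio of 0.527 (0.510 to 0.544). Ifit3, an RNA-binding antiviral protein, had 62.0 CPM in DPN SGCs and 114 CPM in Control SGCs, a ratio of 0.542 (0.515 to 0.570). Psmb9, a subunit of the immunoproteasome, had 33.4 CPM in DPN SGCs and 75.8 CPM in Control SGCs, a ratio of 0.441 (0.412 to 0.471), and Tap1, which carries its peptides into the ER, had 164 CPM in DPN SGCs and 259 CPM in Control SGCs, a ratio of 0.632 (0.613 to 0.652). Irf7, the factor that amplifies the response, had a ratio of 0.625. B2m, the light chain of MHC class I, had 3679 CPM in DPN SGCs and 4830.5 CPM in Control SGCs, a ratio of 0.762 (0.757 to 0.767). The called higher genes were Irf1, with 866 CPM in DPN SGCs and 470.3 CPM in Control SGCs, a ratio of 1.84 (1.81 to 1.87), and Irf9 (ratio 1.503), which kept its call under 7 of 15 alternatives.

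The interferon response is read from promoters through the letters GAAA, 2 bases and GAAA, which were searched on both strands of the same windows. Of all windows 1312 (3.92%) held them, and of the 16 listed genes with a window 10 did (62.5%). Those with the letters had a median log2 ratio of -0.43 and those without of -0.01, and 3 of the 10 (Ifit3, Irf7 and Tap1) were called lower. The windows of Tap1 and Ifit3, both called lower, are shown because both hold the element, with the match in capitals (TTTC, 2 bases and TTTC on the other strand). Psmb9 starts next to Tap1 on the opposite strand and its own window held no match. They lie at chr20:4668494-4668793 (minus strand) for Tap1 and chr1:241527076-241527375 (plus strand) for Ifit3.
Tap1: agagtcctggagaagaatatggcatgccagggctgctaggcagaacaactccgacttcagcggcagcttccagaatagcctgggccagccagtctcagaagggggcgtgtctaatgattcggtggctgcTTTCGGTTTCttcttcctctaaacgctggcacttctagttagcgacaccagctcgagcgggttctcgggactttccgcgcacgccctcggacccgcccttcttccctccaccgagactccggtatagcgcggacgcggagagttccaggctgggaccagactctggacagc
Ifit3: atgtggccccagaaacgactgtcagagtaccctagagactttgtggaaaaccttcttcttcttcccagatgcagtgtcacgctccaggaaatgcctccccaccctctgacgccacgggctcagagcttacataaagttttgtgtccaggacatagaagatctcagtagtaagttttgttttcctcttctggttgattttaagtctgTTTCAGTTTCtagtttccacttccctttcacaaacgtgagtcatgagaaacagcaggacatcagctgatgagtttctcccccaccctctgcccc

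Chemokines were found in both libraries. Ccl2, which attracts monocytes, had 1678 CPM in DPN SGCs and 2582 CPM in Control SGCs, a ratio of 0.650 (0.643 to 0.656), and was called lower, a call kept under 10 of 15 alternatives and lost with span centring (ratio 0.732). Cxcl10, itself an interferon target, had 1805 CPM in DPN SGCs and 2219.5 CPM in Control SGCs, a ratio of 0.813 (0.805 to 0.821). Ccl7, Cxcl1, Il6 and Il33 had ratios of 0.847, 1.17, 0.846 and 1.18. Of 16 measured genes none was called higher and 3 lower, beside 18.8% and 2.19% of all compared genes. Apart from Ccl2, the lower genes were Il1b and Cxcl2, at under 10 CPM. Il1b kept its call under 9 of 13 alternatives and Cxcl2 under 10 of 14. Csf1, a signal of injured ganglia to macrophages, had 31.8 CPM in DPN SGCs and 34.6 CPM in Control SGCs. In prostaglandin synthesis 6 of 15 genes could be measured. Beside Ptgds, which was lower, Ptges3 and Ptges2 had ratios of 0.873 and 0.758, and the receptor genes Ptgir and Ptger4 were called higher at 2.51 CPM in DPN against 1.07 CPM in Control and 0.667 CPM in DPN against 0.193 CPM in Control. Of the metallothioneins Mt1 was lower, with 401 CPM in DPN SGCs and 618 CPM in Control SGCs, a ratio of 0.648 (0.635 to 0.661) whose call was kept under 10 of 15 alternatives, and Mt2A had a ratio of 0.722. The antioxidant genes Gpx4, Sod2, Prdx1 and Hmox1 had ratios of 0.777, 1.13, 0.833 and 0.789. None of the 21 measured antioxidant and metallothionein genes was called higher, beside 18.8% of all compared genes.

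Sodium channel and membrane skeleton genes were higher. All 12 measured genes had ratios above 1 and 10 were called higher, beside 18.8% of all compared genes, with a median log2 ratio of 1.17. In the Schwann gate 11 of 12 measured genes were called higher (median 1.17), and in the endothelial gate 8 of 11 (median 0.82). Over the 9 that could be centred by span, 7 were higher with a median of 1.13 without centring, and 5 with a median of 0.67 with it. Scn7a, the sodium-sensing channel Nax of non-myelinating glia, had 193 CPM (189 to 198) in DPN SGCs and 54.4 CPM (52.5 to 56.4) in Control SGCs, a ratio of 3.55 (3.40 to 3.71). Its ratios were 2.89 in the Schwann gate, which Scn7a helps to define, and 4.73 in the endothelial gate. Tmod2, which caps actin filaments, had 398 CPM in DPN SGCs and 121 CPM in Control SGCs, a ratio of 3.29 (3.19 to 3.39). Sptbn1 and Sptan1, the spectrin chains, had ratios of 2.38 (2.33 to 2.44) and 1.71 (1.64 to 1.78). Ank2 and Ank3, the ankyrins that tie membrane proteins to spectrin, had ratios of 3.69 and 2.04, Epb41l2 and Epb41l3 had ratios of 2.18 and 1.79, and Scn1a and Scn4b, at under 3 CPM, had ratios of 4.51 and 2.31. The ratio of the channel subunit Scn3b was 1.24. Ank2 was scarcer in gated cells than in the other kept barcodes. It had 13.1 CPM against 146 CPM in DPN, and 3.55 CPM against 32.2 CPM in Control.

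Transport functions for which SGCs are known were covered by 2 lists. Of 15 measured genes of potassium buffering, the sodium pump, gap junctions and water channels, 4 were called higher. Of 15 of glutamate and amino acid handling 3 were called higher, beside 18.8% of all compared genes. None was called lower in either list. The 4 were Kcnn3, Slc12a2 (1.53) and the water channel genes Aqp1 (2.35) and Aqp4 (2.16), and Aqp1 kept its call under 11 of 14 alternatives. Aqp1 and Aqp4 had under 200 UMIs over both libraries, short of the minimum for compared genes. Kcnj10 (Kir4.1), the potassium channel that clears potassium around neurons, had 5.88 CPM (5.08 to 6.77) in DPN SGCs and 4.02 CPM (3.52 to 4.58) in Control SGCs, a ratio of 1.46 (1.20 to 1.78), just under the threshold. Gja1 (connexin 43) had 103 CPM in DPN SGCs and 94.8 CPM in Control SGCs, a ratio of 1.09 (1.04 to 1.14). Kcnn3, a calcium-activated potassium channel, had 16.5 CPM in DPN SGCs and 10.5 CPM in Control SGCs, a ratio of 1.58 (1.40 to 1.77). Slc1a3 (GLAST), which takes up glutamate, had 102 CPM in DPN SGCs and 66.2 CPM in Control SGCs, a ratio of 1.54 (1.47 to 1.62), and Glul, which turns it into glutamine, had 201 CPM in DPN SGCs and 144 CPM in Control SGCs, a ratio of 1.40 (1.36 to 1.45). Slc1a3 kept its call under 10 of 15 alternatives. Of the 9 genes of the potassium and gap junction list that could be centred by span, 2 were higher without and none with centring. Of 11 of glutamate and amino acid handling 3 were higher without centring, and none higher and 1 lower with it.

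Among receptors, the endothelin receptor gene Ednrb had 234 CPM in DPN SGCs and 234 CPM in Control SGCs, a ratio of 0.9999 (0.972 to 1.03). P2rx7, an ATP-gated channel, had 4.36 CPM in DPN SGCs and 1.19 CPM in Control SGCs, a ratio of 3.65 (2.72 to 4.95), and P2ry1 had a ratio of 1.67. Entpd2, the enzyme that breaks down ATP outside the cell, had 32.5 CPM in DPN SGCs and 49.2 CPM in Control SGCs, a ratio of 0.661 (0.615 to 0.709), a call kept under 9 of 15 alternatives. Gabbr1, the GABA-B receptor chain, had 298 CPM in DPN SGCs and 344 CPM in Control SGCs.

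SGCs lie on a basement membrane, and 7 of 21 measured matrix genes were called higher, beside 18.8% of all compared genes, and none lower (median log2 ratio 0.35). Over the 18 that could be centred by span, 7 were higher and none lower without centring, and 3 higher and 2 lower with it (median 0.09). Col4a1 and Col4a2, the paired chains of collagen IV, had 216 CPM in DPN SGCs and 110.5 CPM in Control SGCs, a ratio of 1.95 (1.89 to 2.02), and a ratio of 4.84. The laminin chains Lama4, Lamc1 and Lama2 had ratios of 2.61 (2.44 to 2.79), 1.94 (1.82 to 2.08) and 1.72 (1.60 to 1.86), and Lamb1 and Lamb2 had ratios of 1.08 and 1.04. The abundant matrix genes of these cells had ratios of 0.862 for Sparc, 0.868 for Spp1, 0.911 for Fbln2 and 0.819 for Fbln5. Among proteases and their inhibitors, Adamts1 and Adamts5 were higher, with ratios of 4.06 (3.87 to 4.25) and 2.01 (1.90 to 2.13), and so was Mmp2 with 1.52 (1.34 to 1.74), a call kept under 8 of 15 alternatives. Timp1, the inducible inhibitor of metalloproteases, was lower with 822 CPM in DPN SGCs and 1435 CPM in Control SGCs, a ratio of 0.572 (0.565 to 0.580). Timp2, Timp3 and Timp4 had ratios of 0.824, 1.48 and 0.918. Mmp14, Mmp15, Mmp17, Cst3 and Serpine2 had ratios of 1.01, 0.941, 0.899, 1.26 and 0.972. Over the 11 proteases and inhibitors that could be centred by span, 3 were higher without and 2 with centring.

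Most pan-glial genes were not called. Sox10, Sox2 and S100b had ratios of 1.04, 1.05 and 0.959. Lgi4, a secreted signal between glia and axons, had 275 CPM in DPN SGCs and 151 CPM in Control SGCs, a ratio of 1.82 (1.77 to 1.87). The myelin gene Cnp was lower, with a ratio of 0.625 (0.606 to 0.645). Of 6 markers of non-myelinating Schwann cells Scn7a, Chl1 and Cadm2 were called higher, with ratios of 3.55, 1.99 and 1.99, and Sostdc1 lower with 0.568. Over the 5 of them that could be centred by span, 2 were higher with a median log2 ratio of 0.45 without centring, and 1 with a median of -0.01 with it. Gfap, the filament by which reacting SGCs are often known, had 28.9 CPM in DPN SGCs and 28.3 CPM in Control SGCs, a ratio of 1.02 (0.941 to 1.11). Vim had a ratio of 0.827, and Ptn, a growth factor abundant in SGCs, had 4838 CPM in DPN SGCs and 5717 CPM in Control SGCs, a ratio of 0.846 (0.841 to 0.851). Gap43 was higher at 16.7 CPM in DPN against 10.1 CPM in Control. Neurotrophin genes were scarce, with Bdnf at 6.70 CPM in DPN against 4.56 CPM in Control. Of 17 Notch genes and glial transcription factors 15 had ratios above 1 and 5 were called higher, beside 18.8% of all compared genes. The called genes were the Notch genes Hey1 (3.41), Dll1 (2.78) and Rbpj and the transcription factors Nfib (1.83) and Zeb2 (1.76). Hey1 and Dll1 had under 200 UMIs over both libraries, short of the minimum for compared genes. Over the 13 of the list that could be centred by span, 3 were higher without and 1 with centring. Rbpj, the DNA-binding partner of Notch, had a ratio of 2.41, and Notch1 and Hes1 had ratios of 1.13 and 0.938.

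The circadian clock genes differed in a pattern of opposite arms. In the clock, Arntl (BMAL1) with Clock or Npas2 drives E-box genes, whose products feed back on it, so that the arms peak at different hours. Of 17 measured genes 11 were called higher and 2 lower, beside 18.8% and 2.19% of all compared genes, with a median log2 ratio of 0.90. Over the 13 that could be centred by span, without Arntl, 9 were higher without and 8 with centring. Dbp, an output factor, had 113 CPM (109 to 116) in DPN SGCs and 36.7 CPM (35.1 to 38.3) in Control SGCs, a ratio of 3.07 (2.91 to 3.24). The repressor Nr1d1 (REV-ERB alpha) had 144 CPM in DPN SGCs and 64.6 CPM in Control SGCs, a ratio of 2.22 (2.13 to 2.32). The period genes Per1, Per2 and Per3 had ratios of 2.71 (2.10 to 3.52), 1.89 (1.67 to 2.13) and 1.87 (1.75 to 1.99). Tef, Ciart, Bhlhe40, Nr1d2 and Cry2 had ratios of 2.31, 2.10, 2.83, 1.76 and 1.58. Arntl had 6.91 CPM in DPN SGCs and 12.9 CPM in Control SGCs, a ratio of 0.538 (0.461 to 0.625), and Npas2, at under 1 CPM, 0.288. Ratios of Clock, Cry1, Rora and Nfil3 were 1.21, 1.02, 1.03 and 1.05. In the Schwann and the endothelial gate the ratios were 3.56 and 3.64 for Dbp, 2.05 and 1.99 for Nr1d1, 1.48 and 1.51 for Per3, and 0.447 and 0.434 for Arntl. The letters CACGTG (E-box) stood in the windows of 5 of 15 matched clock genes, all called higher, and in 6.42% of all windows. The 5 were Bhlhe40, Bhlhe41, Ciart, Nr1d1 and Tef, with a median log2 ratio of 1.21. The matched genes without the letters had a median of 0.74. The sources used here do not give the hour of dissection, which cannot be told apart from the group.

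**Figure D4:**
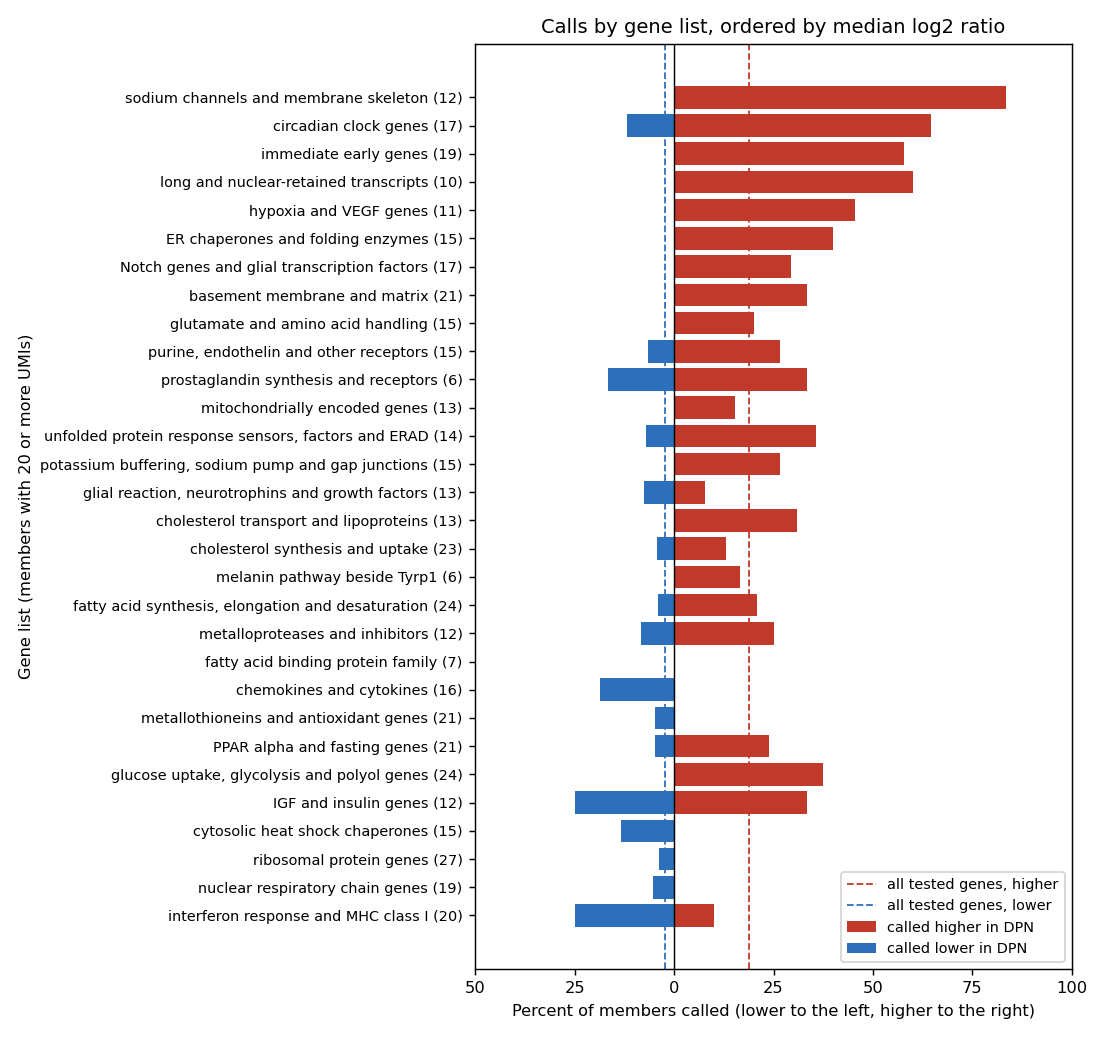
Percent of the measured members of each gene list called higher (red, to the right) or lower (blue, to the left) in DPN satellite glia, with lists ordered by their median log2 ratio and the number of members in brackets. Dashed lines give the shares over all compared genes, 18.8% higher and 2.19% lower. Sodium channel and membrane skeleton genes (10 of 12 higher) stand among the lists with the most higher calls, and interferon genes (5 of 20 lower) among those with the most lower calls.

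Variation among single cells was described in cells thinned to 2000 UMIs each (2920 DPN and 4031 Control cells). The Fano factor, the variance over the mean, had a median of 1.04 in DPN and 1.03 in Control, where 1 is pure counting noise. At the same relative spread this factor rises with the mean, so it does not rank genes of unlike level by relative spread. Apoe had the highest factor, 13.8 in DPN and 16.2 in Control, at means of 138 UMIs per thinned cell in DPN and 164 in Control. It was followed by Ccl2, with 8.12 in DPN and 8.69 in Control, and Cxcl10, with 7.82 in DPN and 8.05 in Control. Ccl2 was found in 58.2% of DPN and 72.6% of Control cells, and Ccl7 had Fano factors of 5.43 in DPN and 4.31 in Control. Among the other genes with high Fano factors in DPN and in Control were Fos (5.70 in DPN, 6.85 in Control), Hspa1b (4.43 in DPN, 6.07 in Control), Ptgds (4.22 in DPN, 6.02 in Control), Spp1 (3.74 in DPN, 4.52 in Control) and Cryab (3.60 in DPN, 4.20 in Control).

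Sums over lists differed in their spread from cell to cell. Fano factors were largest for chemokines and cytokines (10.5 in DPN, 10.7 in Control), mitochondrially encoded genes (9.95 in DPN, 9.66 in Control) and immediate early genes (8.72 in DPN, 10.8 in Control) among the 9 lists summed. The means of these sums were unlike, with 306 UMIs in DPN and 283 in Control for mitochondrially encoded genes, against 7.94 in DPN and 10.7 in Control for chemokines and cytokines. The ER chaperones took a median of 10 of 2000 UMIs in DPN cells (10th to 90th percentile 6 to 18) and of 6 in Control cells (3 to 10). Their Fano factors were 2.30 in DPN and 1.28 in Control, at means of 11.2 UMIs in DPN and 6.50 in Control. Immediate early genes took a median of 40 (20 to 68) in DPN and 24 (10 to 49) in Control. Chemokines and cytokines took 5 (0 to 19) in DPN and 8 (1 to 25) in Control. As a description across cells that share a library, interferon and chemokine sums had Spearman correlations of 0.38 in DPN and 0.36 in Control, and immediate early and heat shock sums of 0.28 in DPN and 0.39 in Control. ER chaperone sums had -0.05 in DPN and 0.04 in Control with immediate early sums. Per 10000 UMIs, Ptgds had a median of 3.40 with quartiles of 0.873 and 10.5 in DPN cells and 8.99 with quartiles of 2.21 and 24.1 in Control cells, so that the libraries overlap widely. Igf1 was at 0 in at least 75% of DPN cells, and its median in Control cells was 0.680. Isg15 had a median of 0 in DPN and 1.34 in Control cells.

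**Figure D5:**
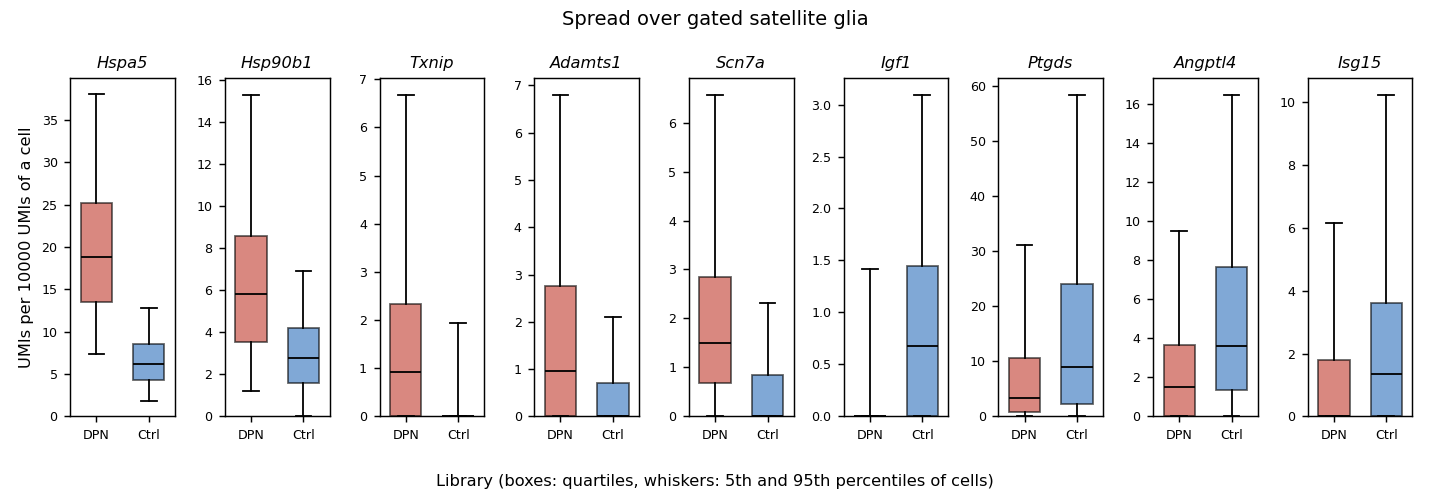
UMIs per 10000 UMIs of a cell for 9 genes in gated DPN (red, left) and Control (blue, right) satellite glia. Boxes give the quartiles with the median as a line, and whiskers the 5th and 95th percentiles over 2951 DPN and 4063 Control cells. The Hspa5 boxes do not overlap (medians 18.9 in DPN and 6.21 in Control), while those of Ptgds do (medians 3.40 in DPN and 8.99 in Control).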

How the data were processed

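Single cells of pooled lumbar DRGs were measured in 1 DPN and 1 Control library. The authors deposited raw UMI counts per gene and cell barcode, made with Cell Ranger 3.1.0 and STAR after dead cells had been removed. Of the sources used here none names the genome build. The libraries held 115409375 UMIs (DPN) and 121101966 UMIs (Control), of which gated cells held 33002142 and 56956081. UMIs of gated cells were summed per library and divided by their total. Counts of the 147 symbols that several identifiers share were added. Genes were compared if they had at least 200 UMIs over both libraries and a UMI in at least 10% of gated cells of a library, with the 11 gate genes left out. Members of a list count as measured from 20 UMIs. With 1 library per group there was no test, and no p-value is given. The Schwann gate required at least 3 UMIs of Cdh19, Scn7a and Sox10 per 10000 and the endothelial gate at least 5 of Cldn5, Flt1 and Cdh5, both with Fabp7 and Tyrp1 under 12 and with the remaining limits, except that the Schwann gate had no limit on myelin genes. No doublet caller was run. The calling rule was tried on simulated counts with planted changes and counting error only. Such counts hold no difference between rats, dissociation or libraries, so the trial covers counting error alone. Python 3.11.15, numpy 2.4.6, pandas 2.3.3 and scipy 1.17.1 were used.

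Genes named in the text are the 6 markers, the 15 highest and 15 lowest ratios among compared genes with a gene symbol, the extremes and the 2 highest levels of each list among members with at least 200 UMIs, the 15 genes highest over other barcodes, the 10 highest Fano factors per library at a mean of at least 0.1, and all members of short lists (15 genes at most) described one by one. Some genes that this rule takes are not reported here, though they count in the totals of their lists. Other members of lists were picked with their values in view. The gate, the 41 lists and the tests were chosen with earlier results of these data known. Alternatives changed the gate, the barcode limits, the scaling, the depth per cell, the minimum of counts and the fold of a call, and centring by gene span was added after the data had been seen. Promoter sequences and gene spans came from RefSeq tables of build GRCr8.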

Additional observations from a re-analysis of the deposited data

Results flagged for a closer look

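A handful of genes of other cell types were called lower in the SGC gate and higher in another gate. None of these differences between gates was tested, and all gates come from the same 2 libraries. The neutrophil genes S100a8 and S100a9 had ratios of 0.176 and 0.0923 in gated SGCs. In the Schwann gate their ratios were 18.5 (10.7 to 35.2) and 52.8 (25.5 to 132), and in the endothelial gate 9.21 (4.03 to 25.9) and 32.8 (15.8 to 82.4). Hba-a2, a haemoglobin gene, had a ratio of 0.149 in gated SGCs and 2.23 (1.77 to 2.82) in the Schwann gate. The chemokine Cxcl2 had a ratio of 0.447 in gated SGCs and 2.17 (1.67 to 2.85) in the endothelial gate. In gated DPN SGCs S100a9 was found in 13 cells and S100a8 in 27, with 1 UMI in each, and in gated Control SGCs in 16 and 79 cells, of which 1 cell held 185 UMIs of S100a9 and 1 cell 92 of S100a8. The 10 cells with most UMIs held 66.1% of the Hba-a2 UMIs in DPN and 93.2% in Control, and 75.7% of the Cxcl2 UMIs in DPN and 87.8% in Control.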

How the results depend on the processing

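No paired analysis was possible because each group is 1 library. Of the genes named here or listed, 571 were recomputed under up to 15 alternatives. Of these values 7951 stayed on their side of the threshold, 2625 of them of called genes, which kept their direction, and 5326 of genes not called, of which 381 lay on the other side of 1. A call was lost in 247, gained in 156, gained in the other direction in 6 and turned in sign in 16. Hspa5 stayed between 2.87 and 3.59 and Igf1 between 0.175 and 0.316, and both kept their calls throughout, as did Ptgds (0.352 to 0.538). The count of higher genes moved from 1314 to 230 of 1865 compared genes with a mitochondrial limit of 10%, which left 114 DPN and 206 Control cells, to 752 with span centring, to 3844 with no minimum of counts and to 498 at a fold of 2. The count of lower genes moved from 153 to 255 with median-ratio scaling, 236 with cells thinned to 2000 UMIs, 311 with span centring, 321 with no minimum and 13 at a fold of 2. The gated share of DPN cells was 33.5% at 8 and 16.8% at 20 Fabp7 and Tyrp1 UMIs, 24.0% with Fabp7 alone, 24.7% with Tyrp1 alone, 28.7% from 2000 UMIs, 3.39% under the 10% limit, 31.9% between 3000 and 15000 UMIs and 14.2% without cells that held markers of other types. In Control it was 47.6%, 30.03%, 35.8%, 38.7%, 43.0%, 8.64%, 38.4% and 33.8% in the same order. With the 10% limit, ratios of called or named genes turned for Cryab (1.07), Gdnf (3.01), Grifin (3.01), Insr (0.668), Mmp2 (0.2505) and Trib3 (1.16). With thinned cells they turned for Aqp1 (0.753), Gabbr2 (0.920) and Il1b (1.10). Cxcl2 turned between 3000 and 15000 UMIs (1.30), Hba-a2 at 20 UMIs (1.61) and with Tyrp1 alone (1.43), S100a9 with Tyrp1 alone (1.23), and Hbb at 20 UMIs (3.66), with Tyrp1 alone (4.09) and without cells that held other markers (2.47). The cause of these moves was not tested, except that the lower limit and the minimum change the number of cells or genes.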
